A study of Mus musculus with 4 samples.

Results

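The genes of polyamine synthesis and its control, *Odc1*, *Amd1*, *Srm*, *Sms*, *Azin1*, *Oaz1*, *Sat1* and *Arg2*, were followed through the adult mouse prostate and through early prostate growth in culture. These 8 genes were chosen by name, for their place in the pathway, from the 31053 genes of the count matrices. Another 30 genes of polyamine transport and oxidation, of hypusine formation and of the supply of ornithine and methionine were kept as the wider pathway.

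Polyamines are small, positively charged molecules that bind nucleic acids and are needed for translation and growth, and the prostate is known for making and secreting them in large amounts. Ornithine decarboxylase (*Odc1*) makes putrescine from ornithine, which the mitochondrial arginase *Arg2* can supply from arginine. *Amd1*, which decarboxylates S-adenosylmethionine and has a near-identical copy, *Amd2*, with which its reads can be confused, provides the aminopropyl groups that spermidine synthase (*Srm*) and spermine synthase (*Sms*) add in turn. Antizyme (*Oaz1*) binds ornithine decarboxylase and sends it to the proteasome, the antizyme inhibitor *Azin1* takes antizyme away from it, and the acetyltransferase *Sat1* marks spermidine and spermine for breakdown or export. Much of this control acts on translation and protein turnover, which mRNA levels do not show.

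Adult cells came from P2-Runx1:RFP mice of the ICR (CD-1) strain, older than 8 weeks, in which the proximal P2 promoter of *Runx1* drives a red fluorescent protein. Epithelial (EPCAM+) cells from each lobe, ventral (VP), dorsolateral (DLP) or anterior (AP), were sorted as RFP+ or RFP-, tagged with barcodes (MULTI-seq) and sequenced in 3 runs, each a separate experiment on pooled mice. All 3 runs held intact mice, and runs 1 and 2 also held mice castrated for more than 4 weeks, with the lobes pooled in run 1 and kept apart in run 2. The explant library held EPCAM+ cells of urogenital sinuses of ICR (CD-1) embryos at E15.5 (day 0) and after 1, 3 and 6 days of culture with 10 µM dihydrotestosterone and insulin-transferrin-selenite. Each day was 1 barcode and day 0 was not cultured, so that culture, hormone and time cannot be told apart.

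The adult libraries gave 824, 2194 and 1673 cells with a single barcode in runs 1, 2 and 3, and the explant library 5198 cells. Cells were clustered without the polyamine genes, and UMIs were summed per run, sorted population and compartment (basal-like or luminal-like) where at least 10 cells were present. This left 40 sums of 205028 to 8689128 UMIs. Levels are given as UMIs per 1000000 (CPM) after TMM scaling, which sets the bulk of genes equal between sums, and in such sums more RNA per cell and more cells with the RNA cannot be told apart. *Krt5*, which marks basal cells, ranged from 662 to 1004 in intact basal-like sums and from 0 to 34.8 in intact luminal-like ones. *Krt5* was among the markers used to name the clusters, so this separation was set by the naming. *Runx1* did not overlap between AP luminal-like sums of the gates, at 74.9 to 144 in RFP+ and 4.0 to 15.7 in RFP-, but did overlap in AP basal-like sums, at 64.2 to 146 and 50.8 to 109.

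The promoter windows of *Odc1* and *Amd1*, whose levels followed each other most closely among the decarboxylases and synthases, and of *Sms*, which followed neither (r with either under 0), are shown from RefSeq (GRCm38.p6). They run from 250 bases before to 50 bases after a transcription start, in the direction of the gene, and capitals mark GC boxes (GGGCGG or its reverse complement CCGCCC) and E-boxes (CACGTG). They lie at chr12:17544623-17544922 (+ strand) for *Odc1*, chr10:40302139-40302438 (- strand) for *Amd1* and chrX:157492238-157492537 (- strand) for the more upstream start of *Sms*.
Odc1: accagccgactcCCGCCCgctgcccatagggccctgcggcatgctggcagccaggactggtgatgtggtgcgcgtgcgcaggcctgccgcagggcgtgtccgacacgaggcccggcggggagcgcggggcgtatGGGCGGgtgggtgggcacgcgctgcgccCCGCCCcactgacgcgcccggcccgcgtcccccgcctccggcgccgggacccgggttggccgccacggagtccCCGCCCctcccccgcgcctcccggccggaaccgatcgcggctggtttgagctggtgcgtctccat
Amd1: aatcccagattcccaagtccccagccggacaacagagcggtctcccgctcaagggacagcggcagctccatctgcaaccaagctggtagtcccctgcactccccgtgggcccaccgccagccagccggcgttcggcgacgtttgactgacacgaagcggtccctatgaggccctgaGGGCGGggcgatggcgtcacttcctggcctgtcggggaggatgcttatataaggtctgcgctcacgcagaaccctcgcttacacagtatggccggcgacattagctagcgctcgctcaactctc
Sms: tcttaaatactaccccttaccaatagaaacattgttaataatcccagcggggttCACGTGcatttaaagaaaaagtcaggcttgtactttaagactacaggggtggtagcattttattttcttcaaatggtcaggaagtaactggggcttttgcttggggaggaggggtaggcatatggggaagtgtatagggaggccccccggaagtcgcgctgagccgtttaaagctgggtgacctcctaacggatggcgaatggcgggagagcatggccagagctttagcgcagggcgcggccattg
The *Odc1* window holds 4 GC boxes, the *Amd1* window 1 and this *Sms* window 0, where 35.7% of all 32851 windows hold at least 1 and 5.49% hold 4 or more. The *Sms* window holds 1 E-box, as 7.15% of all windows do, and the other windows shown hold 0. A window at the other *Sms* start, not shown, holds 4 GC boxes. The hexamer AGAACA (or TGTTCT) of androgen receptor sites, found in 19% of windows, occurs in none of those shown. The *Sat1* window, matched but not shown, holds 1. Windows were matched for 5 of the 8 genes, not for *Srm*, *Azin1* and *Arg2*.

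Over the 40 adult sums, *Odc1* (chr12:17544794-17551505, + strand, GRCm38) and *Amd1* (chr10:40287458-40302186, - strand) varied together, with a Pearson r of 0.70 between log2 levels. *Srm* (chr4:148591503-148594993, + strand) and *Arg2* (chr12:79130777-79156301, + strand) formed a second pair (r = 0.82), and *Sat1* (chrX:155213132-155216449, - strand) ran against *Srm* (r = -0.79). *Oaz1* (chr10:80826656-80829290, + strand) was closest to *Sat1* (r = 0.64). *Sms* (chrX:157443855-157492287, - strand) had its highest r, 0.29, with *Azin1* (chr15:38487427-38519266, - strand). Of 11436 genes, the 5 most like *Odc1* were *Arf4* (r = 0.74), *Amd1*, *2900093K20Rik* (r = 0.64), *Uap1* (r = 0.64) and *Larp1b* (r = 0.63). The sums share runs and mice and differ in depth and cell make-up, so these values are descriptions.

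In the 16 intact luminal-like sums, *Odc1* ranged from 22.4 to 129.7 (median 69.2), *Amd1* from 45.3 to 379 (median 181), *Srm* from 28.6 to 216 (median 109.5) and *Sms* from 14.1 to 170.5 (median 46.4) CPM. In the 15 intact basal-like sums these genes ranged from 7.82 to 101, 23.5 to 182, 22.5 to 62.6 and 21.8 to 72. *Sat1* was at 73.2 to 351 in luminal-like and 352 to 942 in basal-like sums, and *Arg2* at 25.7 to 154 and 9.7 to 36.2. *Oaz1* had the smallest ratio of highest to lowest level, with 679 to 1107 in luminal-like and 788 to 1153 in basal-like sums.

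**Figure D1:**
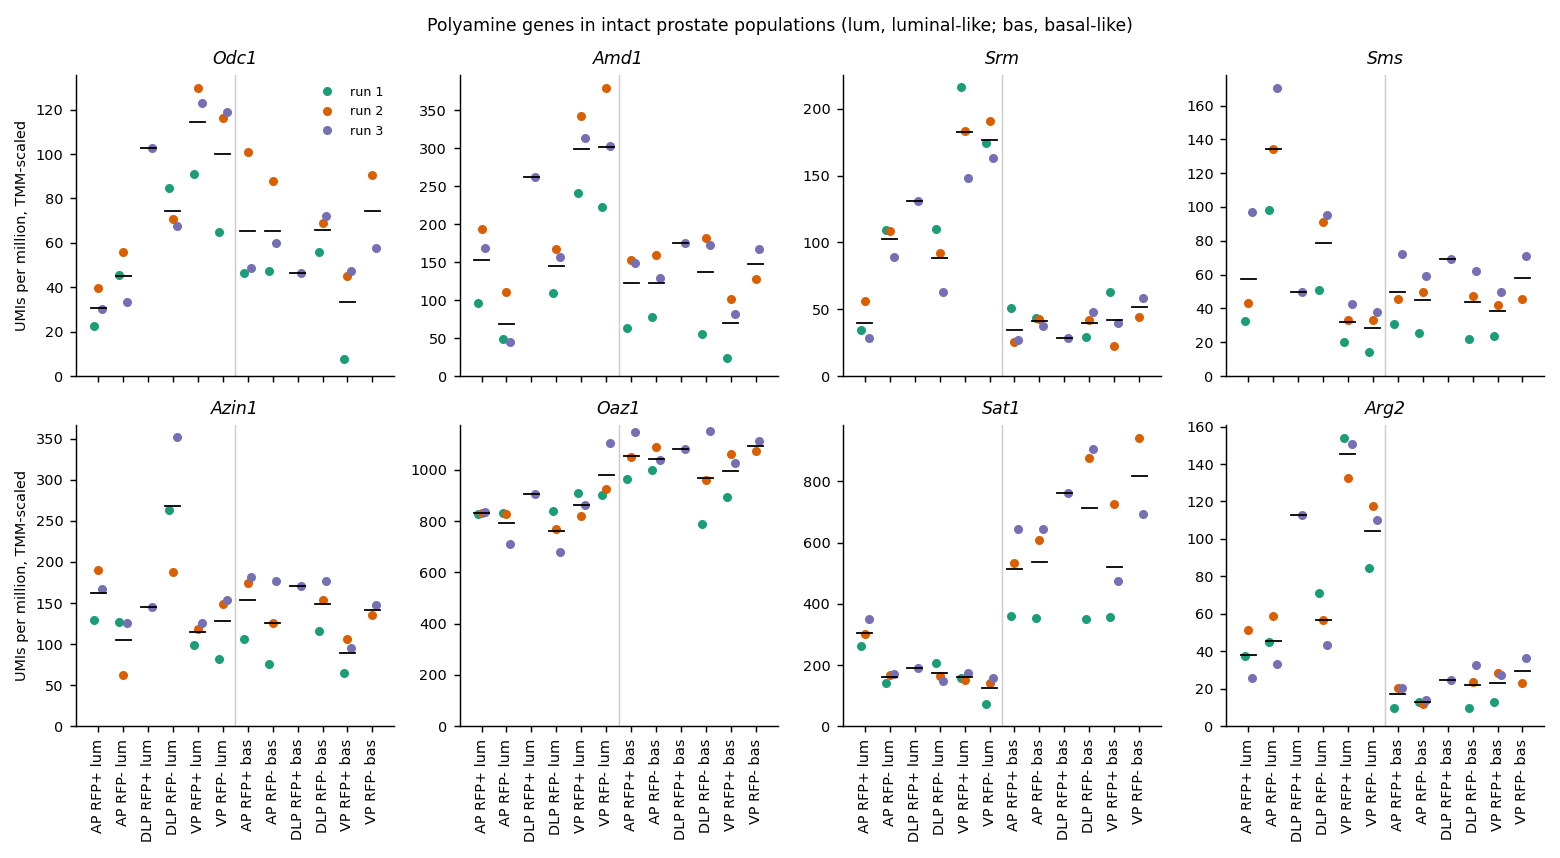
Levels of the 8 genes (CPM, TMM-scaled) in every intact population, with 1 point per run. On this scale VP luminal-like sums reach the highest *Odc1*, *Srm* and *Arg2* levels, 129.7, 216 and 154, and *Oaz1* lies between 679 and 1153 throughout. TMM factors of 0.474 to 0.64 raise the levels of VP luminal-like sums. Without TMM, the highest *Odc1* level is in an AP basal-like sum and the highest *Srm* level in an AP luminal-like sum.

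In the AP, luminal-like cells with an active *Runx1* reporter held less mRNA of both aminopropyl transferases than RFP- cells, and more of the acetyltransferase *Sat1*. *Srm* was at 34.1, 55.9 and 28.6 CPM in RFP+ cells of runs 1, 2 and 3, and at 109, 109 and 89.2 in RFP- cells. The groups did not overlap, and the difference was -1.4 ± 0.29 on the log2 scale (SE, n = 3 runs against 3, edgeR adjusted p = 7.61e-04). *Sms* was at 32.7, 43.1 and 97.2 in RFP+ cells and at 98, 134 and 170.5 in RFP- cells, lower in every run, with the run 3 RFP+ sum just under the lowest RFP- sum. Its difference was -1.22 ± 0.39 (edgeR adjusted p = 0.0248), and without run 2 it did not pass (edgeR adjusted p = 0.348).

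*Sat1* was at 263, 302 and 351 in RFP+ and at 142, 167 and 170.5 in RFP- cells of runs 1 to 3, without overlap (0.93 ± 0.32, edgeR adjusted p = 0.0373). It did not pass without run 2 or run 3 (edgeR adjusted p = 0.236 and 0.231), at a finer clustering resolution of 0.6 (edgeR adjusted p = 0.0923), with the polyamine genes kept for clustering (edgeR adjusted p = 0.0741) or without the highest 6% of doublet scores (edgeR adjusted p = 0.0554). Among cells of fewer than 7500 UMIs it turned to -0.06. So 3 of 8 genes passed the threshold of 0.05, 1 higher and 2 lower, where 22.3% of 11436 genes passed, 14.1% higher and 8.17% lower.

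The other 5 genes did not pass in that fit. *Amd1* was at 95.9, 194 and 168 in RFP+ and at 48.5, 111 and 45.3 in RFP- cells of runs 1 to 3, and *Azin1* at 129, 190.3 and 167 against 126, 62.6 and 125. Both were higher in RFP+ cells in every run, and the groups did not overlap for *Azin1*. *Odc1* was at 22.4, 39.6 and 30 in RFP+ and 45.5, 55.9 and 33.3 in RFP- cells, lower in all 3 runs. With the run as a replicate block, 6 of 8 genes passed, where 3666 of 11436 genes did. *Amd1* (1.09 ± 0.22, edgeR adjusted p = 2.51e-04) and *Azin1* (0.62 ± 0.23, edgeR adjusted p = 0.041) were then higher in RFP+ cells and *Odc1* (-0.63 ± 0.24, edgeR adjusted p = 0.041, against 0.225 without the block) lower, beside *Srm*, *Sms* and *Sat1*. *Arg2* and *Oaz1* differed by -0.31 ± 0.29 and 0.07 ± 0.17.

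The gates also differed in make-up. The Luminal D-like cluster, led by *Psca*, held 81% to 87.7% of AP RFP+ luminal-like cells, and the Luminal B-like cluster, in whose leading genes *Tgm4* stood, 82.6% to 93.3% of AP RFP- ones. The summed level of 5 stress response genes (*Atf4*, *Ddit3*, *Trib3*, *Chac1* and *Asns*) was 228 to 250.2 in RFP+ and 643 to 711 in RFP- sums, and that of 6 hematopoietic markers 0.476 to 223 and 0 to 8.23. Their part in the differences was not tested.

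Of the 30 other pathway genes 24 could be tested, of which 2 were higher and 2 lower in AP RFP+ luminal-like cells. The methylthioadenosine salvage genes *Mtap* (1.31 ± 0.32) and *Apip* (1.26 ± 0.25) were higher. The cationic amino acid transporter gene *Slc7a1* (-1.02 ± 0.29) and the hypusine enzyme gene *Dohh* (-0.89 ± 0.27) were lower. The median log2 difference of the 24 genes was -0.10, against 0.12 over all genes.

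In the VP, 0 of 8 genes differed between RFP+ and RFP- luminal-like cells by edgeR's test, with 0 at an unadjusted p under 0.05 and 0 called by DESeq2, where 0.297% of all genes passed. *Srm* was at 216, 183 and 148 in RFP+ and at 175, 191 and 164 in RFP- cells of runs 1 to 3 (difference 0.04 ± 0.28). *Arg2* was at 154, 132 and 151 against 84.5, 118 and 110.2, without overlap (0.46 ± 0.28, edgeR adjusted p = 0.911). *Odc1* was at 91.1, 129.7 and 123 against 64.8, 116 and 119, and *Amd1* at 241, 343 and 313 against 222, 379 and 303. Luminal A-like cells, led by secretoglobins, made up 86.3% to 94.5% of the RFP+ and 50% to 68.2% of the RFP- cells, and the RFP- sum of run 1 held 10 cells.

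For *Srm* the RFP difference itself differed between the lobes. The AP difference minus the VP difference was -1.44 ± 0.40 (n = 3 runs in each of 4 groups, edgeR adjusted p = 0.0336), for 1 of 8 genes, where 5.15% of all genes passed and 1.51% were lower. With the replicate block, where 1375 of 11436 genes passed, 3 of the 8 did, *Srm* (-1.43 ± 0.32, edgeR adjusted p = 0.00298), *Sms* (-1.41 ± 0.25, edgeR adjusted p = 3.62e-04) and *Amd1* (1.06 ± 0.30, edgeR adjusted p = 0.019). Without the block, *Srm* lost its call when run 1, 2 or 3 was left out (edgeR adjusted p = 0.0886, 0.219 and 0.23), when sums under 20 cells were dropped (edgeR adjusted p = 0.056) and without TMM (0.115, the median of all genes then being 0.20). It was also lost with the polyamine genes kept for clustering (edgeR adjusted p = 0.0565) and with library sizes taken without the 50 most abundant genes (edgeR adjusted p = 0.0608). Of 24 other pathway genes, *Apip* (1.21 ± 0.36) and *Arg1*, the cytosolic arginase (-2.41 ± 0.66), passed.

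**Figure D2:**
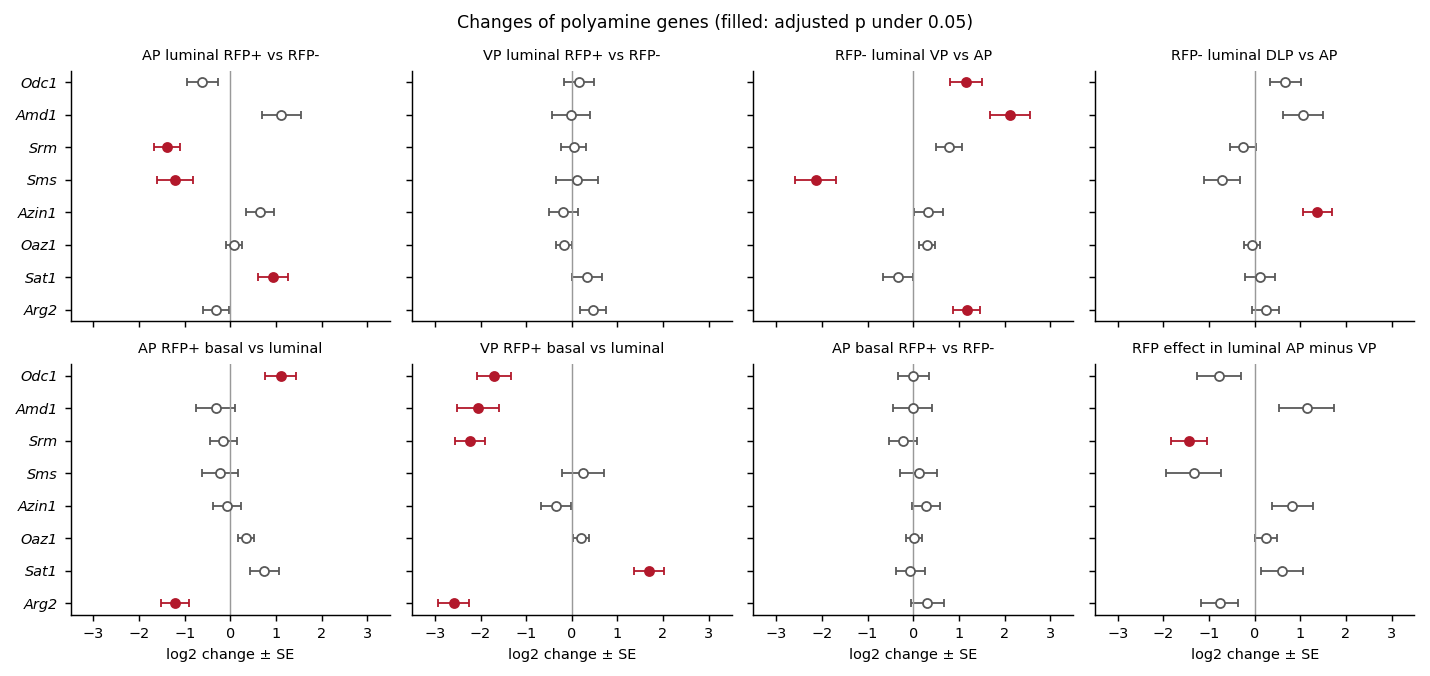
Log2 differences with standard errors of the 8 genes in the tested comparisons of intact cells, with calls at an adjusted p under 0.05 marked. *Srm* is lower in AP RFP+ than RFP- luminal-like cells (-1.4), and 0 genes pass between the gates in VP luminal-like or AP basal-like cells.

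Lobes were compared among RFP- luminal-like cells. Of these cells, 82.6% to 93.3% were Luminal B-like in the AP and 55.2% to 73.3% in the DLP. In the VP 50% to 68.2% were Luminal A-like and 30% to 33.3% Luminal C-like. The part of the clusters was not tested. *Odc1* was at 64.8, 116 and 119 CPM in VP and at 45.5, 55.9 and 33.3 in AP sums of runs 1, 2 and 3, every VP sum above every AP sum (1.15 ± 0.35, n = 3 against 3, edgeR adjusted p = 0.0245). *Amd1* was at 222, 379 and 303 against 48.5, 111 and 45.3 (2.12 ± 0.44, edgeR adjusted p = 0.0014) and *Arg2* at 84.5, 118 and 110.2 against 45, 58.8 and 33.3 (1.17 ± 0.30, edgeR adjusted p = 0.00754), again without overlap. *Sms* went the other way, at 14.1, 32.9 and 37.9 in VP and 98, 134 and 170.5 in AP sums (-2.13 ± 0.45, edgeR adjusted p = 0.00152). So 3 genes were higher and 1 lower in the VP, where 14.2% of all genes passed, 7.81% higher and 6.41% lower. *Srm* was at 175, 191 and 164 against 109, 109 and 89.2, without overlap, and passed with the replicate block (edgeR adjusted p = 0.0657 without and 0.0106 with it), where 2360 of all genes passed.

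These values depend on the scaling. TMM factors were 0.474 to 0.64 in VP and 1.02 to 1.35 in AP luminal-like sums, and without TMM the median of all genes in this comparison was -0.98. *Odc1* (0.16, edgeR adjusted p = 0.712) and *Arg2* (0.19, edgeR adjusted p = 0.594) then lost their calls, *Srm* turned to -0.20, and *Amd1* (1.16) and *Sms* (-3.13) still passed. *Sat1* (-1.34), and *Azin1* (-0.70) and *Oaz1* (-0.69) with a change of sign, then passed as lower. Of all genes, 893 were higher and 733 lower in the VP with TMM, and 275 and 5426 without. Without run 2 only *Amd1* of the 8 genes passed, with *Odc1*, *Sms* and *Arg2* at edgeR adjusted p = 0.134, 0.0922 and 0.101. Without run 3 only *Sms* passed, with *Odc1*, *Amd1* and *Arg2* at edgeR adjusted p = 0.362, 0.107 and 0.123.

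Of 24 other pathway genes tested, 2 were higher and 4 lower in VP than in AP RFP- luminal-like cells. *Mat2a*, which makes the S-adenosylmethionine that *Amd1* consumes, was at 580.4 ± 174 in VP and 136 ± 36.5 in AP sums (SD, n = 3 each, 2.09 ± 0.34). The urea cycle gene *Asl* was higher by 1.01 ± 0.25. The 4 lower genes were the transporter genes *Slc7a1* (-1.54 ± 0.34), *Atp13a3* (-1.19 ± 0.33), *Atp13a2* (-1.16 ± 0.32) and *Slc3a2* (-0.92 ± 0.24). The median log2 difference of the 24 genes was -0.06, against 0.00 over all genes.

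Between DLP and AP RFP- luminal-like cells 1 of 8 genes differed, where 1.43% of all genes did and 0.927% were higher. *Azin1* was at 264, 188 and 353 in DLP and at 126, 62.6 and 125 in AP sums, without overlap (1.37 ± 0.31, n = 3 against 3, edgeR adjusted p = 0.0196), and lost its call without run 2 or run 3 (edgeR adjusted p = 0.42 and 0.39), with a fit to these groups alone (edgeR adjusted p = 0.113) and among cells of fewer than 7500 UMIs (edgeR adjusted p = 1). With the replicate block *Amd1* (1.03 ± 0.23, edgeR adjusted p = 0.00638) and *Sms* (-0.80 ± 0.16, edgeR adjusted p = 0.00247) passed as well, where 439 of all genes did. *Amd1* was at 109.9, 168 and 157 and *Sms* at 50.7, 91.1 and 95.2 in DLP sums. The lobe comparisons and the AP gate comparison share the AP RFP- sums. DLP RFP+ luminal-like cells were labelled in intact mice of run 3 alone, where *Odc1* was at 103 against 67.7 in RFP- cells, *Srm* at 131 against 62.8 and *Azin1* at 145 against 353, with no test. These gates lay in different clusters, with 59.1% Luminal A-like and 25.8% Luminal D-like cells among the RFP+ cells and 73.3% Luminal B-like and 1.33% Luminal A-like cells among the RFP- cells, and their part was not tested.

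Between compartments, *Odc1* went opposite ways in the AP and the VP. In AP RFP+ cells it was at 46.6, 101 and 48.9 in basal-like and at 22.4, 39.6 and 30 in luminal-like sums, higher in basal-like cells without overlap (1.1 ± 0.34, n = 3 against 3, edgeR adjusted p = 0.0159). *Arg2* was lower in AP basal-like cells, at 9.94, 20.5 and 20.6 against 37.5, 51.2 and 25.7 (-1.21 ± 0.31, edgeR adjusted p = 0.00401). These were 2 of 8 genes, 1 higher and 1 lower, where 28.8% of all genes passed, 14.5% higher and 14.3% lower. *Odc1* lost its call without run 2 or run 3 (edgeR adjusted p = 0.178 and 0.0984) and *Arg2* without run 2 (edgeR adjusted p = 0.0914), and among cells of fewer than 7500 UMIs neither passed (edgeR adjusted p = 0.128 and 0.314). With the replicate block, where 4585 of 11436 genes passed, 4 of the 8 did, *Sat1*, at 360.3, 532 and 645 against 263, 302 and 351 (0.72 ± 0.23, edgeR adjusted p = 0.012), and *Oaz1*, at 964, 1051 and 1148 against 829, 832 and 835 (0.34 ± 0.13, edgeR adjusted p = 0.0439), beside *Odc1* and *Arg2*.

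In VP RFP+ cells 5 of 8 genes passed, 1 higher and 4 lower in basal-like cells, where 37.5% of all genes did, 18% higher and 19.4% lower. The groups did not overlap for any of these 5 called genes, and the share of all genes without overlap is not given. *Odc1* was at 7.82, 45 and 47.4 in basal-like and at 91.1, 129.7 and 123 in luminal-like sums (-1.7 ± 0.38, edgeR adjusted p = 7.72e-04), the lowest value from 3 UMIs in 24 cells. *Amd1* was at 23.5, 102 and 82.2 against 241, 343 and 313 (-2.05 ± 0.46) and *Srm* at 62.6, 22.5 and 39.9 against 216, 183 and 148 (-2.23 ± 0.32). *Arg2* was at 13, 28.6 and 27.4 against 154, 132 and 151 (-2.59 ± 0.34). *Sat1* was higher in basal-like cells, at 357, 727 and 474 against 156, 152 and 174 (1.7 ± 0.33, edgeR adjusted p = 1.71e-04), and lost its call without run 2 (edgeR adjusted p = 0.0619). Without TMM the median of all genes was 1.19, *Odc1* lost its call (-0.53, edgeR adjusted p = 0.211), and *Amd1*, *Srm* and *Arg2* stayed lower (-0.87, -0.9994 and -1.41). *Sms* (1.46), *Oaz1* (1.41) and *Azin1* (0.86, with a change of sign) then also passed, and of all genes 6137 were higher and 552 lower, against 2063 and 2224 with TMM. Whether the compartment difference differed between the lobes was not tested. The luminal-like RFP+ cells were 81% to 87.7% Luminal D-like in the AP and 86.3% to 94.5% Luminal A-like in the VP. The part of these clusters was not tested.

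Among 24 other pathway genes, 5 were higher and 6 lower in AP basal-like than luminal-like cells, and 6 higher and 7 lower in VP. Of all genes 14.5% were higher and 14.3% lower in AP, and 18% and 19.4% in VP. *Oat*, the ornithine aminotransferase, was higher in basal-like cells by 1.55 ± 0.24 in AP and 2.17 ± 0.25 in VP, and *Slc7a1* by 1.78 ± 0.28 and 2.77 ± 0.31. *Asl*, by contrast, differed by -0.89 ± 0.25 in AP and -2.17 ± 0.30 in VP, *Enoph1* by -1.16 ± 0.27 in AP, and *Mat2a* and *Adi1* by -2.1 ± 0.35 and -2.08 ± 0.60 in VP. *Ass1* (1.11 ± 0.40) and the *Sat1* relative *Sat2* (1.28 ± 0.48) were higher in AP basal-like cells. *Arg1* was at 23.7 ± 8.44 in VP RFP+ luminal-like sums (SD, n = 3) and had 0 UMIs in the basal-like ones. In AP RFP+ cells *Arg1* was at 4.54 ± 0.674 in luminal-like and 0.256 ± 0.257 in basal-like sums.

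Between RFP+ and RFP- basal-like cells of the AP, 0 of 8 genes passed edgeR's test, with 0 at an unadjusted p under 0.05 and 0 called by DESeq2, where 0% of all genes passed. *Odc1* was at 46.6, 101 and 48.9 in RFP+ and at 47.3, 88.1 and 60.1 in RFP- sums, and *Sat1* at 360.3, 532 and 645 against 354, 609 and 644. *Srm* differed by -0.22 ± 0.30 and *Sms* by 0.12 ± 0.41. Of 24 other pathway genes 0 passed there, and 0 passed between the VP luminal-like gates or between DLP and AP RFP- luminal-like cells.

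Levels by epithelial cluster are descriptions, on a scale set over the cluster sums. Luminal A-like cells held *Srm* at 212 ± 37.6 CPM, *Arg2* at 156 ± 11.1 and *Odc1* at 129 ± 16.3 (SD, n = 3 intact runs). Luminal D-like cells held *Srm* at 17.3 ± 5.17, *Arg2* at 26.5 ± 5.31 and *Odc1* at 26.5 ± 4.47, every run below every Luminal A-like run. *Sms* was at 146 ± 36.9 in Luminal B-like and 32.5 ± 9.74 in Luminal A-like cells, and *Sat1* at 374 ± 52.2 in Luminal D-like and 149 ± 33.6 in Luminal A-like cells. *Oaz1* was at 949 ± 37, 854 ± 115 and 896 ± 15 in the A-, B- and D-like clusters. Cells of these clusters differed in depth, with a median of 48150 UMIs in Luminal A-like cells. Without TMM, *Odc1* in intact runs 1 to 3 was at 57.3, 69.15 and 61.3 in Luminal A-like and 28.5, 37 and 28.6 in Luminal D-like cells. In basal-like cells it was then at 60.3, 95.8 and 59.1. *Srm* was then at 129.6, 103.1 and 80.1 in Luminal A-like and 141.7, 108.7 and 68.2 in Luminal B-like cells.

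**Figure D3:**
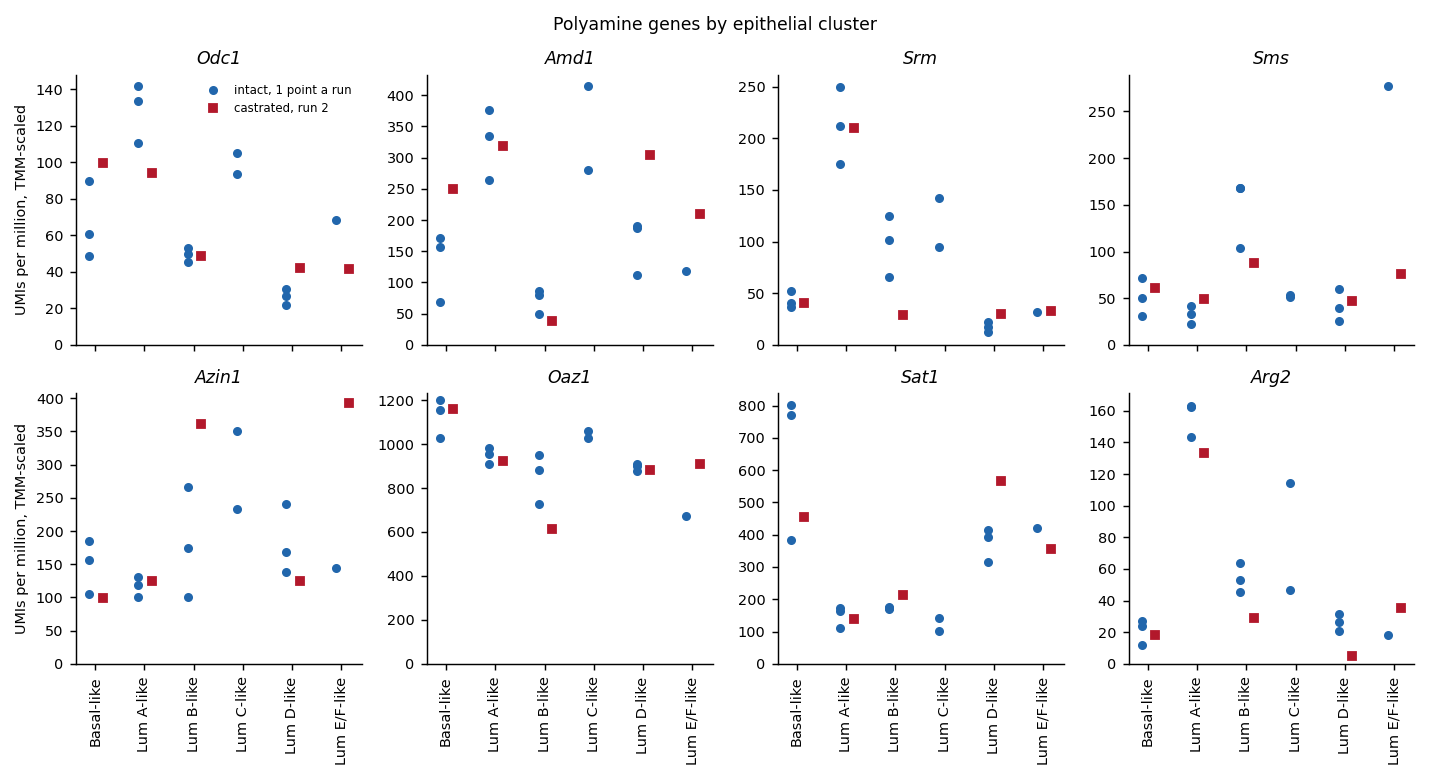
Levels of the 8 genes (CPM, TMM-scaled) by epithelial cluster, in intact runs and in castrated cells of run 2. In intact runs *Srm*, *Arg2* and *Odc1* are higher in Luminal A-like than in Luminal D-like cells. Castrated *Azin1* is at 392 in Luminal E/F-like and 98.5 in basal-like cells. The lead of Luminal A-like cells over other clusters depends on the scaling.

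Castrated and intact mice could be compared lobe by lobe in run 2 only, as 1 pool each and with no test, so that pool and treatment cannot be told apart. Intervals are 95% and cover counting error only. Of 48 values in 6 populations, 10 differed at least 2-fold, 6 of them in VP RFP+ luminal-like cells. There *Odc1* was at 54.9 against 129.7 (log2 ratio -1.24, -1.52 to -0.97) in castrated against intact mice, *Srm* at 42.3 against 183 (log2 ratio -2.12, -2.42 to -1.82) and *Arg2* at 51 against 132 (log2 ratio -1.38, -1.66 to -1.1). *Azin1* was at 307 against 118 (log2 ratio 1.38, 1.22 to 1.53), *Sms* at 83.4 against 33.1 (log2 ratio 1.33, 1.03 to 1.64) and *Sat1* at 346 against 152 (log2 ratio 1.19, 1.04 to 1.33). The 6 castrated values lay outside the range of the 3 intact runs, as did 26 of all 48 values of the 8 genes. The share over all genes is not given, so lying outside that range is no result by itself. So 3 of 8 genes were higher and 3 lower, where 16.5% of genes with at least 20 UMIs differed as much, 7.85% higher and 8.62% lower. Without TMM the median of all genes was 0.94, *Odc1* (-0.31) and *Arg2* (-0.44) were no longer 2-fold lower, and the other 4 stayed past 2-fold. Of all genes, 761 were 2-fold higher and 835 lower with TMM, and 4403 and 231 without.

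The make-up of these cells differed too. Of intact VP RFP+ luminal-like cells in run 2, 94% were Luminal A-like, and of castrated ones 84.9% lay in the Luminal E/F-like clusters, led by *Lpl* and by *Ang5*. The hematopoietic markers summed to 117 in castrated and 0.287 to 16.5 in intact sums. The part of the make-up and of the hematopoietic markers was not tested. Within Luminal A-like cells of run 2, 49 castrated against 259 intact, 0 of 8 genes differed 2-fold, where 5.37% of all genes did. These cells were pooled over lobes and gates, and VP RFP+ cells made up 8 of the castrated and 171 of the intact ones. The 2 sides thus differed in lobe, and the part of the lobe was not tested. Within basal-like cells 0 of 8 genes differed 2-fold as well (10.1% of all genes). In the Luminal A-like cells *Srm* was at 210.3 against 212 (log2 ratio -0.01, -0.20 to 0.17), *Arg2* at 133 against 144, *Azin1* at 125 against 118 and *Odc1* at 94.2 against 142 (log2 ratio -0.59, -0.87 to -0.33). The 34 castrated and 97 intact Luminal D-like cells held *Azin1* at 125 against 240.2 (log2 ratio -0.95, -1.41 to -0.51), lower in the castrated cells. *Srm* was there at 29.9 against 12.1 (log2 ratio 1.31, 0.10 to 2.48) and *Arg2* at 4.99 against 21.1 (log2 ratio -2.08, -5.2 to -0.09), from 12 and 2 castrated UMIs. In Luminal B-like cells, 10 castrated against 166 intact, *Azin1* was at 360.5 against 101 (log2 ratio 1.84, 1.31 to 2.33), higher in the castrated cells, and *Srm* at 29.2 against 102 (log2 ratio -1.8, -4.08 to -0.24), the latter from 3 castrated UMIs. The 448 castrated Luminal E/F-like cells held *Azin1* at 392, *Odc1* at 41.6, *Srm* at 32.8 and *Arg2* at 35.2.

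In AP luminal-like cells taken as a whole, *Azin1* was also higher in castrated mice. It was at 277 against 190.3 in AP RFP+ and at 258 against 62.6 (log2 ratio 2.04, 1.76 to 2.32) in AP RFP- cells, where *Sms* was at 63.2 against 134 (log2 ratio -1.09, -1.52 to -0.68). These made 0 of 8 genes past 2-fold in AP RFP+ and 2 of 8 in AP RFP- luminal-like cells, where 16.4% and 18.7% of all genes were, in AP RFP- cells 8.51% higher and 10.2% lower. The 3 intact runs held *Azin1* at 62.6 to 126 in AP RFP- cells, with run 2 the lowest. In AP RFP+ cells they held it at 129 to 190.3, with run 2 the highest. The clusters changed with castration here too, from 81% Luminal D-like in intact to 83.2% Luminal E/F-like in castrated AP RFP+ cells of run 2, and from 82.6% Luminal B-like to 72.9% Luminal E/F-like in AP RFP- cells. The part of the clusters was not tested. In the 21 castrated DLP RFP- luminal-like cells *Azin1* was at 344, inside the intact range of 188 to 353, and 0 of 8 genes differed 2-fold (14% of all genes). Castrated DLP RFP+ luminal-like cells, which had no intact partner in run 2, held *Azin1* at 414, and the 11 cells of the castrated RFP+ pool of run 1 at 442.

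Basal-like cells could be compared in the AP and the VP, with 1 gene past 2-fold in each. In castrated AP RFP+ basal-like cells *Azin1* was lower, at 83.2 against 174 (log2 ratio -1.06, -1.41 to -0.73), the 1 of 8 genes past 2-fold, where 6.54% of all genes were 2-fold lower. The 3 intact runs there held *Azin1* at 105.7 to 182. *Amd1* was at 219.6 against 102 (log2 ratio 1.1, 0.69 to 1.52) in VP RFP+ basal-like cells, again 1 of 8 genes, where 5.11% of all genes were 2-fold higher, and at 244 against 153 in AP. At resolution 0.6, where some of these cells fell in unnamed clusters, the VP log2 ratio was 0.041. *Odc1* was at 97.7 against 101 in AP and 74.7 against 45 in VP basal-like cells.

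**Figure D4:**
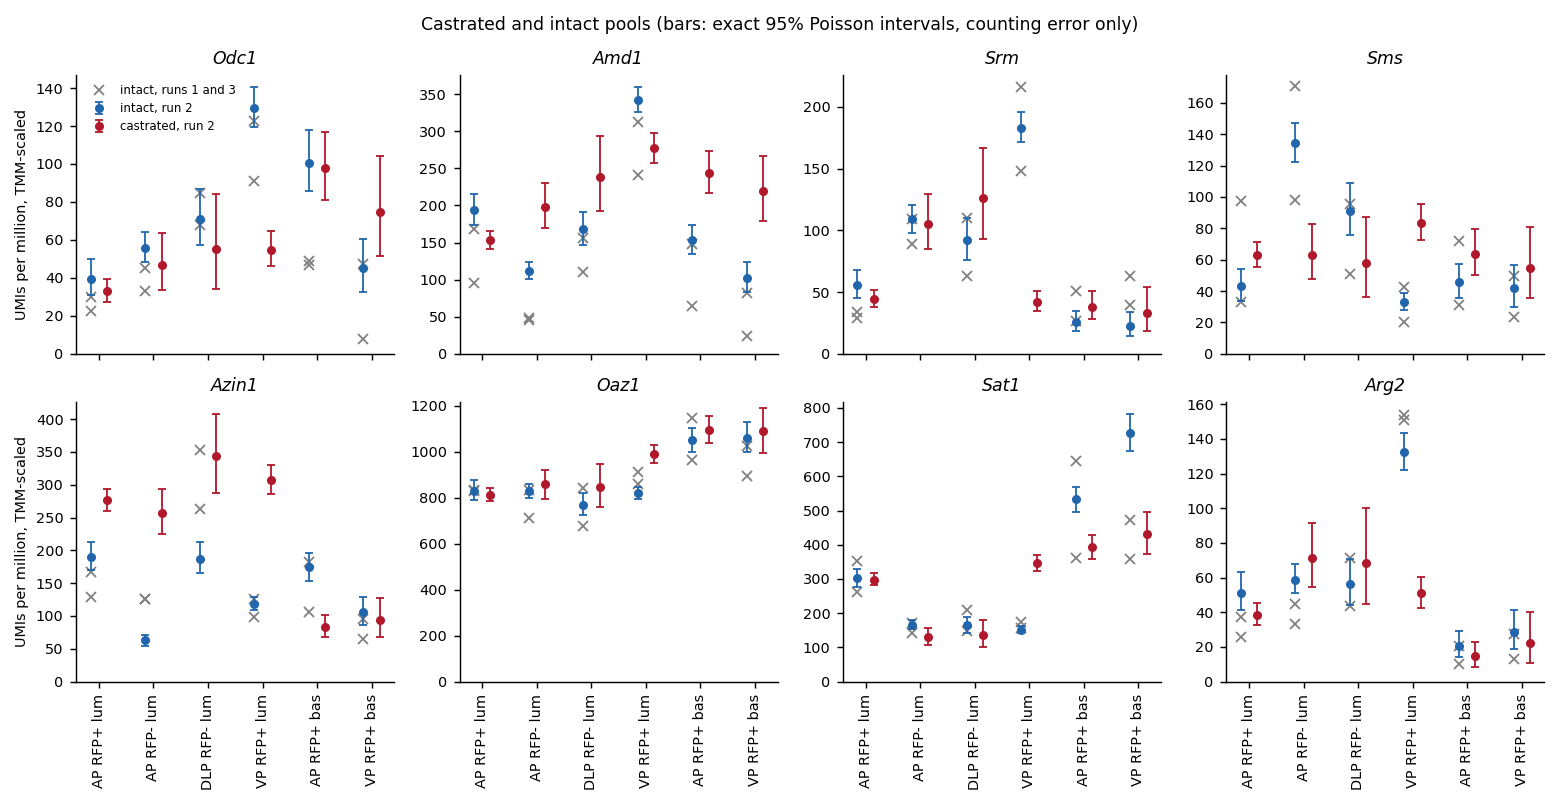
Castrated and intact levels of run 2 with exact 95% Poisson intervals, beside the other intact runs, in CPM. *Azin1* is higher in castrated AP luminal-like cells, and *Odc1*, *Srm* and *Arg2* are lower in castrated VP RFP+ luminal-like cells, at 54.9, 42.3 and 51.

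Of the other pathway genes with enough UMIs, 1 was 2-fold higher and 1 lower of 21 in castrated AP RFP+ basal-like cells (all genes: 320 and 511 of 7818), and 2 and 2 of 14 in VP RFP+ basal-like cells (290 and 584 of 5679). In AP RFP+ luminal-like cells 4 of 22 differed 2-fold, 2 in each direction, beside 16.4% of all genes, and in AP RFP- ones 3 were higher and 2 lower of 22, beside 8.51% and 10.2%. In VP RFP+ luminal-like cells 0 were higher and 4 lower of 24 (7.85% and 8.62% of all genes), and in DLP RFP- ones 0 and 1 of 17 (14% of all genes in either direction). The polyamine transporter gene *Atp13a3* was at 228 against 59.9 (log2 ratio 1.93, 1.63 to 2.23) in castrated against intact AP RFP+ luminal-like cells and at 154 against 62.6 (log2 ratio 1.3, 0.98 to 1.62) in AP RFP- ones. *Slc7a1* was at 56.1 against 24.4 and *Apip* at 23 against 73.9 in AP RFP+ luminal-like cells. *Mat2a* was lower in castrated VP RFP+ luminal-like cells, at 157 against 653 (log2 ratio -2.05, -2.21 to -1.9), and higher in AP RFP- luminal-like cells, at 398 against 160.5 (log2 ratio 1.31, 1.11 to 1.51), and in VP RFP+ basal-like cells, at 545 against 195 (log2 ratio 1.48, 1.2 to 1.76). *Arg1* was at 3.56 against 15.8 (log2 ratio -2.15, -3.34 to -1.15) in VP RFP+ and 22.2 against 6.17 (log2 ratio 1.85, 0.87 to 2.81) in AP RFP- luminal-like cells. The others past 2-fold were *Atp13a2*, lower in VP RFP+ and AP RFP- luminal-like cells, *Slc18b1* in VP RFP+ and *Enoph1* in AP RFP+ luminal-like cells, *Ass1* in AP RFP- and DLP RFP- luminal-like cells, *Asl* and *Dohh* in VP and *Paox* in AP basal-like cells, all lower, and *Smox* in AP and *Amd2* in VP basal-like cells, both higher. The intervals of *Ass1*, *Asl* and *Paox* included 0.

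In the prostatic-like cells of explants, *Odc1* was highest on day 3. These cells, 462, 434, 934 and 1964 of them on days 0, 1, 3 and 6, held *Odc1* at 56.4 (52.1 to 60.9), 51.7 (47.3 to 56.5), 124 (118 to 129.5) and 89 (85.4 to 92.8) CPM on these days. Day 3 lay 1.26 above day 1 on the log2 scale (1.12 to 1.4), the 1 of 8 genes with a 2-fold difference in that step, where 3.3% of all genes were 2-fold higher. From day 0 to 1 and from day 3 to 6, 0 of 8 genes differed as much (6.79% and 5.12% of all genes). Over all assigned cells the step from day 1 to 3 was 0.77. With 1 barcode per day there was no test. The proliferation list summed to 447, 534, 750.5 and 721 on these days, and its part was not tested.

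The high *Odc1* level lay in cluster 0, led by *Wif1*, which held it at 159 (151 to 167) and 107 (102 to 112) on days 3 and 6. Cluster 1, with *Krt14* and *Krt5* among its leading genes, held it at 43.2 (37.8 to 49.1) and 40.5 (36.8 to 44.5) on those days. Cluster 2, with 460 of the day 0 cells, held it at 51.8 and 44.4 on days 0 and 1. On day 1 clusters 0 and 1 held it at 98.85 (67.2 to 140.3) and 76.3 (52.9 to 106.7), from 21 and 24 cells. Cluster 0 went from 21 cells on day 1 to 507 on day 3, and cluster 2 from 389 to 36. The part of this change in make-up was not tested. *Srm* was also higher in cluster 0 than in cluster 1 on days 3 and 6, at 116 and 99.3 against 62.3 and 48.6, as were *Sms*, at 96.6 and 88 against 58.2 and 56.5, and *Arg2*, at 18.8 and 23.2 against 7.25 and 13.5. *Amd1* was lower in cluster 0, at 88.1 and 104 against 154 and 165, and so was *Sat1*, at 72 and 143 against 186 and 264. Cells of 1 day share a culture and a library, and these levels have no replicate.

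In prostatic-like cells as a whole, *Sat1* was at 281, 189.6, 123 and 206 on days 0, 1, 3 and 6, *Amd1* at 171, 160.3, 119 and 139 and *Srm* at 67, 86.5, 103 and 87.3. *Arg2* was at 5.78, 11.6, 15.4 and 21.3. *Sms* ranged from 66.4 to 88.4, *Azin1* from 58.6 to 75.9 and *Oaz1* from 1265 to 1419. Of the wider pathway, *Arg1* was at 9.61 on day 1 and 0.857 on day 3 (log2 ratio -3.49, -4.45 to -2.64). *Ahcy*, *Eif5a2* and *Slc18b1* also differed 2-fold between successive days, all at levels under 10 CPM.

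**Figure D5:**
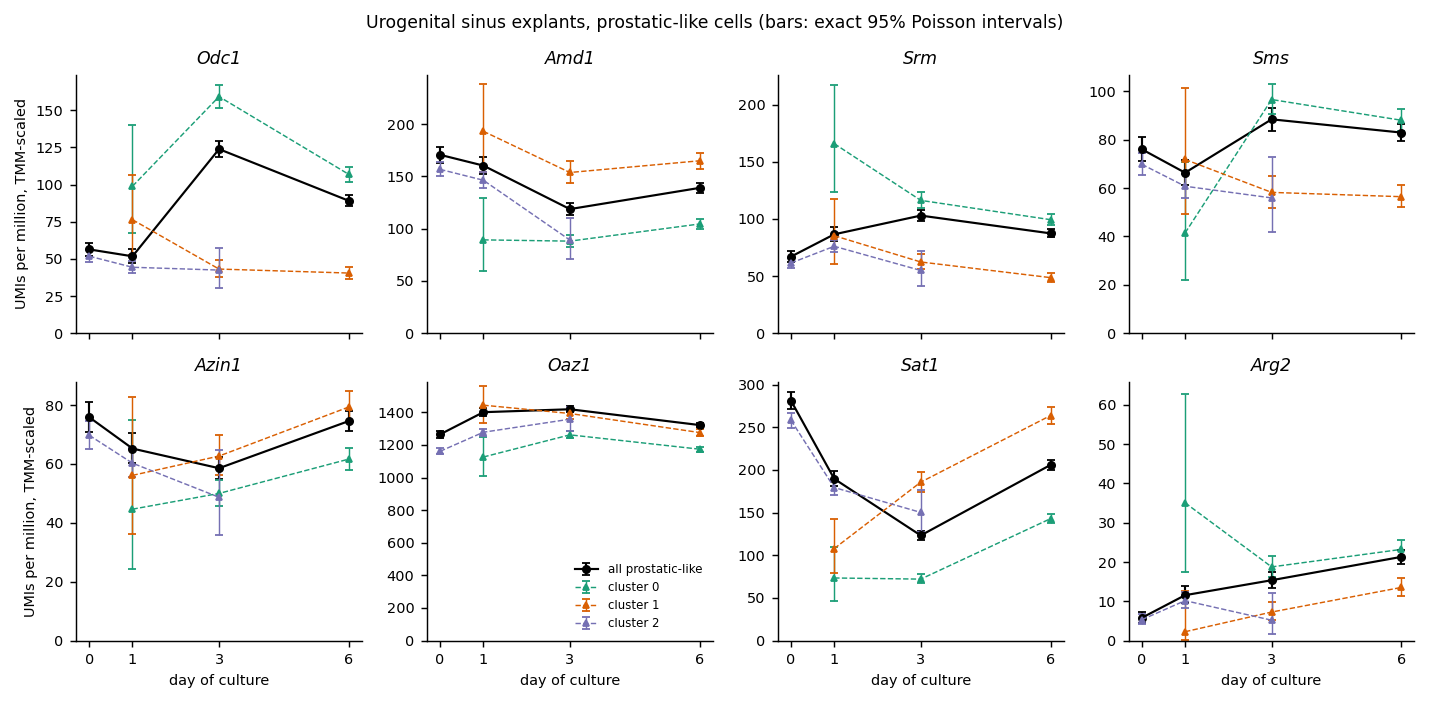
Levels of the 8 genes in prostatic-like explant cells by day (CPM, TMM-scaled), for all such cells and by cluster, with exact 95% Poisson intervals. *Odc1* is at 159 and 107 in cluster 0 on days 3 and 6, and at 43.2 and 40.5 in cluster 1.

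Mesonephric derivative-like cells held *Odc1* at 138 (122 to 155), 147 (128 to 169), 149.5 (126 to 176) and 386 (322 to 458) on days 0, 1, 3 and 6, above the prostatic-like cells on every day, the last from 25 cells. The unnamed cluster 3, led by *Psca*, held *Odc1* at 36.4, 21.3 and 21.3 and *Sat1* at 507, 511 and 692 on days 1, 3 and 6. Bladder urothelium-like cells held *Odc1* at 63.7, 35.2 and 29.4 and *Sat1* at 346, 378 and 446 on those days.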

How the data were processed

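Polyamine genes were read from 4 matrices of UMI counts, deposited by the authors as filtered gene-by-cell counts made with Cell Ranger 3.1.0 on mm10 (Seurat 3.1.5 is also in the submitters' processing notes), with MULTI-seq barcode tables. Libraries were made with a 3' kit, runs 1 and 2 on another sequencer than run 3 and the explants. Cells with 750 to 7500 genes and under 10% mitochondrial UMIs (explant: at least 1000 genes and under 7.5%) and a single barcode of the study were kept, and clustered in Seurat 5.3.0 (resolution 0.3) without the polyamine genes. Clusters were named from markers, and unnamed otherwise, so cluster names may differ from the study's. A repeat with other settings of the numerical library moved some cells between clusters, and *Sat1* between AP luminal-like gates then did not pass. Scrublet marked 6, 4, 6 and 0 cells, so it was not relied on and barcodes alone removed doublets. The barcode of intact DLP RFP+ cells failed in runs 1 and 2. Doublets with those cells could therefore keep a single barcode there and were not removed. Libraries shared 0 to 6 cell barcodes.

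UMIs were summed per run, population and compartment (at least 10 cells), scaled by TMM and tested with edgeR 4.0.16 (quasi-likelihood, all intact groups in 1 fit, Benjamini-Hochberg over 11436 genes, threshold 0.05), after a check on simulated data. The design gave a replicate per run, a separate experiment on pooled mice, so p-values measure the spread between runs. Castrated and explant values had no replicate and no test. There a call was a 2-fold difference with at least 20 UMIs over both sums, and 95% intervals (Poisson, or binomial for ratios) cover counting error only. UMI counts per cell had medians of 9750 to 14785 in the 4 libraries.

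The 8 genes and the wider list were chosen with earlier results of these data known. The 8 genes are named throughout, up to 6 other pathway genes with the largest differences past the threshold per tested comparison, and all past 2-fold in the others. Run numbers mark shared experiments, and deviations of sums with the same number correlated at 0.0235 to 0.523, so values with the run as a replicate block are given where they change a call. Alternatives were DESeq2 1.42.0, other filters, scalings and resolutions, and leaving out each run. R 4.3.3, Python 3.11.15 and scipy 1.17.1 were used.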

Additional observations from a re-analysis of the deposited data

Results flagged for a closer look

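The RFP+ against RFP- difference of *Srm* in luminal-like cells differed between the AP and the VP, by -1.44 on the log2 scale (edgeR interaction contrast). RFP+ cells held less *Srm* in all 3 AP runs, and in VP luminal-like cells the difference was 0.04 ± 0.28 (SE, n = 3 runs). The interaction did not pass when any 1 run was left out, and it passed with the run as a block. It was singled out because the difference between the lobes was itself tested.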

How the results depend on the processing

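*Sat1* between AP luminal-like gates turned to -0.059 among cells under 7500 UMIs, and no other called difference changed direction under any alternative run. Of the values that answer a comparison 199 stayed alike and 59 moved, and of those for single genes 251 stayed, 32 lost their call, 1 reversed and 9 moved, and unless a setting drops sums or genes the cause was not tested. Genes past the threshold between VP luminal-like gates numbered 34, and 79 with DESeq2, 204 with no low-count filter, 114 with the replicate block, 58 with at least 20 cells per sum, 14 with only the groups compared and 2 to 61 without 1 run. Between AP basal-like gates they numbered 0, and 1 with DESeq2, 25 with no filter and 3 with the block. Between AP luminal-like gates they numbered 2546, and 487 with cells under 7500 UMIs and 938 to 2170 without 1 run, with 3 polyamine genes, and 6 with the block and 1 to 5 without 1 run. For DLP against AP they numbered 164, and 409 with no filter, 439 with the block, 59 with only the groups compared, 4 under 7500 UMIs and 12 to 164 without 1 run, with 1 polyamine gene, and 2, 3, 0, 0 and 0 to 1 in that order. For VP against AP they numbered 1626, and 5701 without TMM and 615 to 1401 without 1 run, with 4 polyamine genes, and 1 to 5 without 1 run. For basal-like against luminal-like they numbered 3299 in AP, and 850 under 7500 UMIs and 1822 to 2726 without 1 run, with 2 polyamine genes, and 4 with the block, 1 under 7500 UMIs and 0 to 3 without 1 run. In VP they numbered 4287, and 6689 without TMM and 2274 to 3932 without 1 run. For the difference of the gate effect between lobes they numbered 589, and 1375 with the block and 20 to 530 without 1 run, with 1 polyamine gene, and 2 with no filter, 3 with the block, and 0 without the 50 most abundant genes, with at least 20 cells, with the polyamine genes kept for clustering, without TMM or without any 1 run. The 10 castrated values past 2-fold were 5 under 7500 UMIs. The 1 explant value was 0 over all assigned cells, 2 at resolution 0.5 and 2 without the highest 6% of Scrublet scores.

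Dropping TMM in the tests and summing *Amd1* with *Amd2* were added after seeing the data, and the sum changed no call. Without TMM the split of calls moved by more than 10 points also for the gate effect between lobes (416 higher and 173 lower, then 378 and 59). It moved too in castrated AP RFP+ basal-like (320 and 511, then 174 and 886, and 217 and 722 without the 50 most abundant genes), VP RFP+ basal-like (290 and 584, then 201 and 728), AP RFP- luminal-like (728 and 869, then 508 and 1158) and DLP RFP- luminal-like cells (273 and 591, then 147 and 813). For the 8 genes the block changed no call beyond those given. Cells under 7500 UMIs gave 4 of the 8 tested contrasts, and the rest could not be fitted for lack of sums. The smallest sum held 205028 UMIs.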

Other observations

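*Amd2*, a near-identical copy of *Amd1*, was at 30.9 to 116 CPM in the 18 sums of run 2 and at 4.85 to 24.6 in the 22 sums of runs 1 and 3, without overlap. How the counting split reads between the copies is not given in the sources used here, and levels of either are uncertain between runs.

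Sorted cells that clustered as other types also held *Odc1*. In hematopoietic-like cells it was at 76.1 ± 26.2 CPM (SD, n = 3 intact runs) and, in castrated cells of run 2, at 215.5 from 79 cells. In fibroblast-like cells it was at 48.4 ± 10.7 in intact runs and at 79.5 in the 12 castrated cells of run 2. Among intact epithelial clusters, Luminal C-like cells, led by *Msmb*, held *Odc1* at 105 and 93.7 and *Azin1* at 233.5 and 350.5 in runs 2 and 3, which had at least 10 such cells.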
